A study of Mus musculus with 10 samples.

Results

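AMP-activated protein kinase (AMPK) is a heterotrimer of a catalytic alpha, a scaffolding beta and a nucleotide-sensing gamma subunit. The genes described here are those of 6 of its subunits (Prkaa1, Prkaa2, Prkab1, Prkab2, Prkag1 and Prkag2) with Stk11, which encodes the upstream kinase LKB1, and Camkk2, which encodes the calcium-dependent upstream kinase CaMKK2. They were picked by symbol, with earlier results of these data known, and all 8 are present among the 55385 genes of a table of RNA-seq counts. The mice were C56Bl6, as the labels spell the strain, and left ventricular tissue gave 5 HFpEF and 5 Control libraries. HFpEF mice were fed a high-fat diet and given L-NAME, which blocks nitric oxide synthase, over 6 weeks. The combination is used as a model of heart failure with preserved ejection fraction (HFpEF). Control mice were fed a standard diet. Age is not given, and nothing states that libraries came from separate animals, so p-values reflect only the spread between libraries, which may be technical.

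In the heart, AMPK is known as a sensor of energy supply. When ATP falls, AMP and ADP bind the gamma subunit, which favours phosphorylation of the activation loop of the alpha subunit by LKB1, while CaMKK2 phosphorylates the same site when calcium rises. The active kinase promotes fatty acid and glucose use and restrains lipid and protein synthesis, largely by phosphorylating proteins that are already made, so transcript levels say nothing of its activity.

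Sequencing depth, as summed counts, was 31286355 to 33604554 in HFpEF and 31555001 to 46108710 in Control, where Control 4 and Control 5 were the deepest libraries. Transcripts of the mitochondrial genome took 36.2% to 38.5% of counts in HFpEF and 33.6% to 37.5% in Control. Of 18491 genes tested, 599 were higher and 386 lower in HFpEF at an adjusted p below 0.05 (edgeR quasi-likelihood test, Benjamini-Hochberg adjustment over all genes tested), or 5.33% of genes called. With library size as the sole scaling the split was 246 higher and 1277 lower, and the median log2 fold change over all genes was -0.11 in place of -0.01. Levels below are CPM, computed on library sizes multiplied by TMM factors, and fold changes are HFpEF over Control on the log2 scale with their standard error (SE). The libraries carried the markers of ventricular muscle: Myh6, the main myosin heavy chain of adult mouse ventricle, stood at 11850 ± 416 CPM in HFpEF and 12167 ± 426 CPM in Control (SD, n = 5 each). The atrial genes Myl7 and Sln were too low to be tested. In bulk tissue, fewer cells of a type and less RNA per cell cannot be told apart.

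All 8 genes passed the filter on low counts, with 333 to 9496 counts per library. Of these, 2 fell (Prkab1 and Camkk2), 1 rose (Prkag2) and 5 were not called, beside 5.33% called among all genes (2.09% lower, 3.24% higher). The CPM ranges of the groups did not overlap for the same 3 genes, as for 6.81% of all genes (2.93% with every HFpEF library lower, 3.88% with every HFpEF library higher). The median log2 fold change of the 8 genes was 0.04 and their median absolute log2 fold change 0.09, against -0.01 and 0.11 over all genes tested. All changes were below 1.5-fold.

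**Figure D1:**
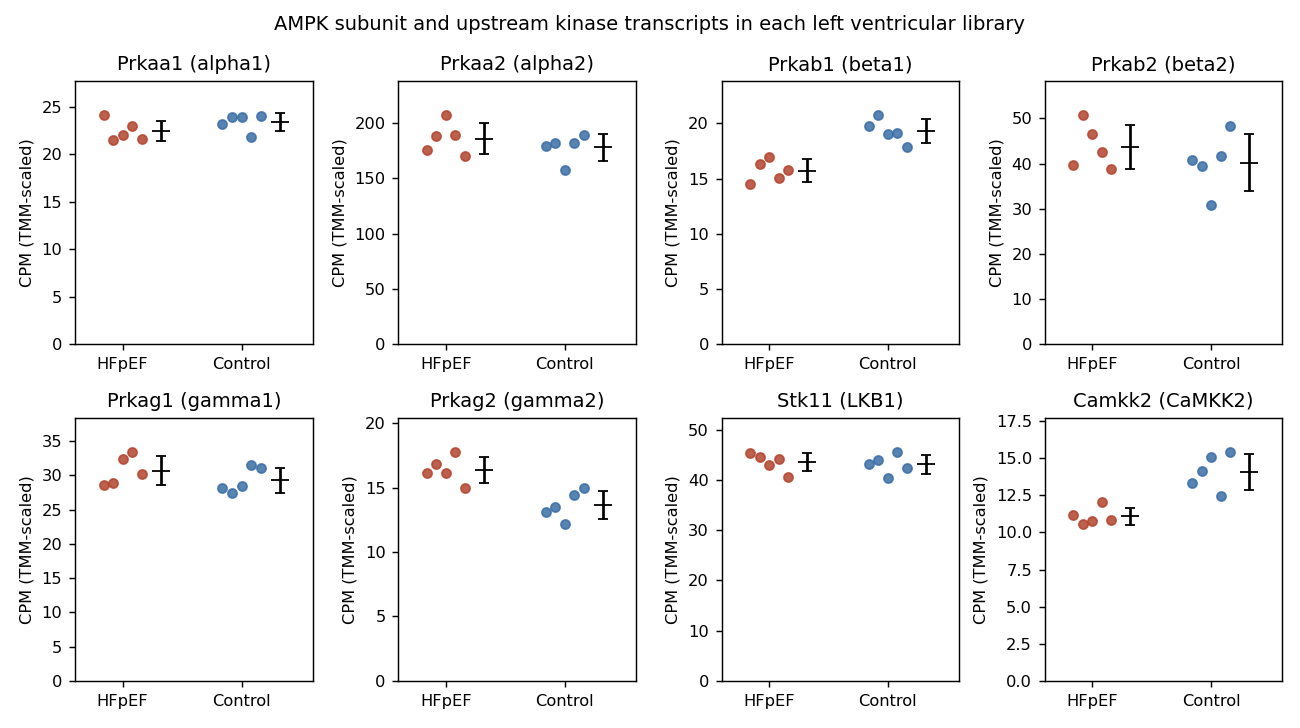
TMM-scaled CPM of each of the 8 genes in the 5 HFpEF libraries (red) and the 5 Control libraries (blue), with the group mean and SD in black; each vertical axis starts at 0. All HFpEF libraries lie below all Control libraries for Prkab1 and Camkk2 and above them for Prkag2, while the groups overlap for the other genes.

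The catalytic subunits were present at very unequal levels. Prkaa2, which encodes alpha2, the main catalytic subunit of heart muscle, was the highest of the 8 genes, at 23.3 ± 1.80 CPM per kilobase of exon in HFpEF and 22.3 ± 1.51 in Control (SD, n = 5 each). Per library its level was 176, 188, 207, 189 and 170 CPM in HFpEF, against 179, 182, 157, 182 and 189 CPM in Control. The ranges overlapped, HFpEF 3 being the highest and Control 3 the lowest library, and Prkaa2 was not called (0.06 ± 0.06, 95% interval -0.07 to 0.20, adjusted p = 0.615, edgeR). Prkaa1, which encodes alpha1, the subunit common to most tissues, had 24.1, 21.4, 22.0, 23.0 and 21.6 CPM in HFpEF and 23.2, 23.9, 23.9, 21.7 and 24.0 CPM in Control. HFpEF 1 held its highest value and HFpEF 2 its lowest, so the groups overlapped over their whole width (-0.06 ± 0.05, interval -0.17 to 0.05, adjusted p = 0.570). The intervals leave room for changes of up to 0.20 in Prkaa2 and down to -0.17 in Prkaa1. Per length, Prkaa2 made up 82.8% ± 1.38 of the alpha transcripts in HFpEF and 81.6% ± 1.36 in Control.

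Of the scaffolds, which hold the trimer together and bind glycogen, beta1 fell and beta2 was not called. Prkab1, the gene of beta1, lies on mm10 chromosome 5 from 116013586 to 116024508 on the minus strand. It had 14.49, 16.33, 17.002, 15.02 and 15.82 CPM in HFpEF, against 19.75, 20.73, 19.04, 19.17 and 17.85 CPM in Control. The highest HFpEF library, HFpEF 3, stayed below the lowest Control library, Control 5. Prkab1 averaged 15.7 ± 1.00 CPM in HFpEF and 19.3 ± 1.06 CPM in Control (SD, n = 5 each), a log2 fold change of -0.29 ± 0.06 (interval -0.42 to -0.17, adjusted p = 0.0100, edgeR). Its call was kept in all 10 fits that left out 1 library (adjusted p up to 0.0345). Prkab2, the gene of beta2, the form that predominates in striated muscle, had 39.6, 50.7, 46.6, 42.6 and 38.9 CPM in HFpEF and 40.8, 39.4, 30.7, 41.6 and 48.4 CPM in Control. Its standard error was the largest of the 8 genes, with Control 3 lowest and HFpEF 2 highest, and its interval ran from -0.12 to 0.35 (0.12 ± 0.11, adjusted p = 0.601).

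The nucleotide-sensing subunits, whose CBS repeats bind AMP, ADP and ATP, showed a rise of gamma2. Prkag2, the gene of gamma2, whose inherited variants in people cause glycogen-storage cardiomyopathy with ventricular pre-excitation, lies on chromosome 5 from 24862744 to 25100642 on the minus strand. It had 16.12, 16.83, 16.16, 17.75 and 14.99 CPM in HFpEF and 13.12, 13.48, 12.19, 14.45 and 14.94 CPM in Control. The groups were apart by a small margin: the lowest HFpEF library, HFpEF 5, and the highest Control library, Control 5, had 485 and 750 counts, or 14.99 and 14.94 CPM. Prkag2 averaged 16.4 ± 1.02 CPM in HFpEF and 13.6 ± 1.09 CPM in Control (SD, n = 5 each; 0.26 ± 0.07, interval 0.12 to 0.40, adjusted p = 0.0330, edgeR). The call ended without HFpEF 2 (adjusted p = 0.0683), HFpEF 3 (0.0684), HFpEF 4 (0.0877), Control 1 (0.0822), Control 2 (0.0634) or Control 3 (0.0677), with log2 fold changes of 0.22 to 0.30 over the 10 fits. It also ended with library size as the sole scaling, where the value was 0.16 and the median of all genes -0.11. The antisense gene Prkag2os2 covers 12.3% of the exonic bases of Prkag2. It stood at 1.72 ± 0.289 CPM in HFpEF and 1.19 ± 0.235 CPM in Control (0.51 ± 0.17, adjusted p = 0.0906), and since strand is not given, reads of the overlap cannot be told apart.

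Prkag1, the gene of gamma1, the widespread form, had 28.6, 28.8, 32.35, 33.4 and 30.2 CPM in HFpEF and 28.1, 27.4, 28.4, 31.5 and 31.1 CPM in Control. The groups overlapped, HFpEF 4 being highest and Control 2 lowest, and the gene was not called (0.06 ± 0.06, interval -0.06 to 0.19, adjusted p = 0.589). The antisense gene B130046B21Rik covers 43.7% of the exonic bases of Prkag1, at 2.82 ± 0.334 CPM in HFpEF and 3.20 ± 0.347 CPM in Control. Prkag3, which encodes gamma3, a form of skeletal muscle, was named through a list of skeletal muscle markers. It was low in both groups, at 2.65 ± 0.170 CPM in HFpEF and 1.98 ± 0.172 CPM in Control (SD, n = 5 each), and was called higher (0.42 ± 0.11, adjusted p = 0.0356). The call was kept when HFpEF 1 or Control 4 was left out, and lost with any other library left out (highest adjusted p = 0.0866). It was also lost with library size as the sole scaling, with no filter on low counts, and without Control 4 and Control 5 together. With replicate number as a block the Prkag3 call was lost too. The skeletal muscle list summed to 19.7 to 116 CPM in HFpEF and 70.3 to 245 CPM in Control. Most of that sum was Acta1, skeletal alpha-actin, at 77.3 ± 36.9 CPM in HFpEF and 132 ± 68.7 CPM in Control (SD, n = 5 each), which overlapped between groups and was not called (edgeR adjusted p = 0.459). Actn3, Mylpf, Tnnt3 and Myh4 of that list were too low to be tested.

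Of the upstream kinases, Camkk2 fell and Stk11 was not called. Stk11, the gene of LKB1, on chromosome 10, had 45.4, 44.6, 43.0, 44.2 and 40.7 CPM in HFpEF and 43.3, 44.0, 40.4, 45.6 and 42.5 CPM in Control. The ranges nearly coincided, with an interval from -0.09 to 0.11 (0.01 ± 0.05, adjusted p = 0.904). Camkk2 (chromosome 5, 122731170 to 122779409, minus strand) had 11.21, 10.60, 10.80, 12.02 and 10.82 CPM in HFpEF, against 13.36, 14.16, 15.08, 12.49 and 15.42 CPM in Control. Every HFpEF library lay below every Control library, the nearest being HFpEF 4 and Control 4, and the HFpEF libraries were closer together. Camkk2 averaged 11.1 ± 0.567 CPM in HFpEF and 14.1 ± 1.21 CPM in Control (SD, n = 5 each; -0.35 ± 0.07, interval -0.49 to -0.20, adjusted p = 0.00843, edgeR). It was the largest change of the 8 genes in this fit and stayed called in all 10 fits without 1 library (adjusted p up to 0.0289).

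**Figure D2:**
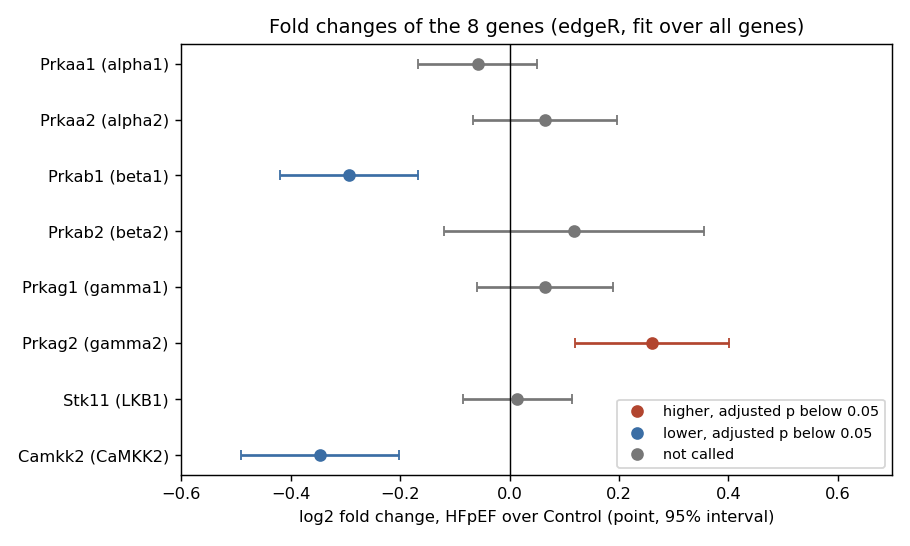
Log2 fold changes of HFpEF over Control (points) with 95% intervals (bars) for the 8 genes, from the edgeR fit over all 18491 genes; red is called higher, blue called lower and grey not called. Prkab1 (-0.29) and Camkk2 (-0.35) lie below 0, Prkag2 (0.26) lies above it, and the other 5 intervals cross 0.

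Markers of other cell types are given beside the falls of Prkab1 and Camkk2 and the rise of Prkag2. All 6 macrophage and leukocyte markers had negative log2 fold changes (median -0.26), and their summed level was 75.3 to 89.8 CPM in HFpEF and 84.5 to 123 CPM in Control. None of the 6 was called by edgeR or limma-voom, 3 had an unadjusted p below 0.05, and DESeq2 called 1. With edgeR, 2 were called with library size as the sole scaling, 1 with no filter on low counts and 1 without Control 4. Over all genes, DESeq2 called 1422 of 18090 tested, 496 of them lower. With library size as the sole scaling, edgeR called 1523 of 18491 genes (1277 lower). It called 1009 of 35413 (414 lower) with no filter and 894 of 18677 (325 lower) without Control 4. Mrc1, the mannose receptor of resident macrophages and their most abundant marker, stood at 25.3 ± 1.47 CPM in HFpEF and 29.9 ± 3.64 CPM in Control (adjusted p = 0.0752, or 0.0157 with library size as the sole scaling). The 6 endothelial markers summed to 678 to 759 CPM in HFpEF and 735 to 879 CPM in Control, with 1 of them, Emcn (endomucin), called lower (-0.27 ± 0.07, adjusted p = 0.0447). Of the 6 endothelial markers, 5 had negative log2 fold changes and 1 a positive one (median -0.13). With library size as the sole scaling, 3 endothelial markers were called. Emcn kept its call when HFpEF 1 or Control 4 was left out, and lost it with any other library left out (highest adjusted p = 0.119). The cardiomyocyte markers summed to 23155 to 24906 CPM in HFpEF and 23768 to 25260 CPM in Control. Of these 6, Tnnt2, cardiac troponin T, fell (-0.22 ± 0.05, adjusted p = 0.0185), a call that ended without HFpEF 2, HFpEF 4 or Control 1 (adjusted p up to 0.0639). Fibroblast markers summed to 425 to 463 CPM in HFpEF and 372 to 467 CPM in Control, and those of smooth muscle and pericytes to 746 to 853 CPM in HFpEF and 691 to 806 CPM in Control. Neither list had a member called by edgeR, with 2 and 1 genes at an unadjusted p below 0.05, and DESeq2 called 1 fibroblast marker. All 6 smooth muscle and pericyte markers had positive log2 fold changes (median 0.17), and 4 of 6 fibroblast markers did (median 0.11). The 3 nerve and Schwann cell markers tested were positive too (median 0.30). By edgeR 0 of these 3 were called and 2 had an unadjusted p below 0.05. That list summed to 5.86 to 9.27 CPM in HFpEF and 5.28 to 7.25 CPM in Control. Unadjusted p-values below 0.05 were common among all genes: a p of 0.0464 ranked 3650 among the 18491 genes tested (edgeR). Atrial markers summed to 15.3 to 29.3 CPM in HFpEF and 37.2 to 58.3 CPM in Control, with Nppa, the atrial natriuretic peptide, lower (-1.19 ± 0.22, adjusted p = 0.0187). The Nppa call was lost without Control 4 and Control 5 together. With replicate number as a block, the calls of Tnnt2 and Nppa were both lost. Adipocyte markers summed to at most 0.652 CPM in any library, with Ucp1 at 0. The part of these differences in the values of Prkab1, Camkk2 and Prkag2 was not tested.

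The order of the levels per kilobase of exon was the same in both groups. Prkaa2 was followed by Prkag1 (14.1 ± 0.983 CPM per kilobase in HFpEF, 13.5 ± 0.844 in Control), Stk11 (9.52 ± 0.402 in HFpEF, 9.42 ± 0.415 in Control) and Prkab2 (8.57 ± 0.972 in HFpEF, 7.88 ± 1.24 in Control). Below them came Prkab1 (5.13 ± 0.327 in HFpEF, 6.30 ± 0.344 in Control), Prkaa1 (4.82 ± 0.235 in HFpEF, 5.02 ± 0.206 in Control), Prkag2 (2.53 ± 0.157 in HFpEF, 2.104 ± 0.168 in Control) and Camkk2 (1.02 ± 0.0519 in HFpEF, 1.29 ± 0.111 in Control). Neighbours whose ranges overlapped were Stk11 and Prkab2 in both groups, Prkab1 and Prkaa1 in HFpEF, and Prkab2 and Prkab1 in Control. These levels rest on the length used. With the longest annotated transcript, Prkag2 (4.91) passed Prkaa1 (4.82) in HFpEF, and Prkab1 (9.24) passed Prkab2 (8.03) in Control, while Camkk2, at 2.28 in HFpEF and 2.90 in Control, remained the lowest.

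**Figure D3:**
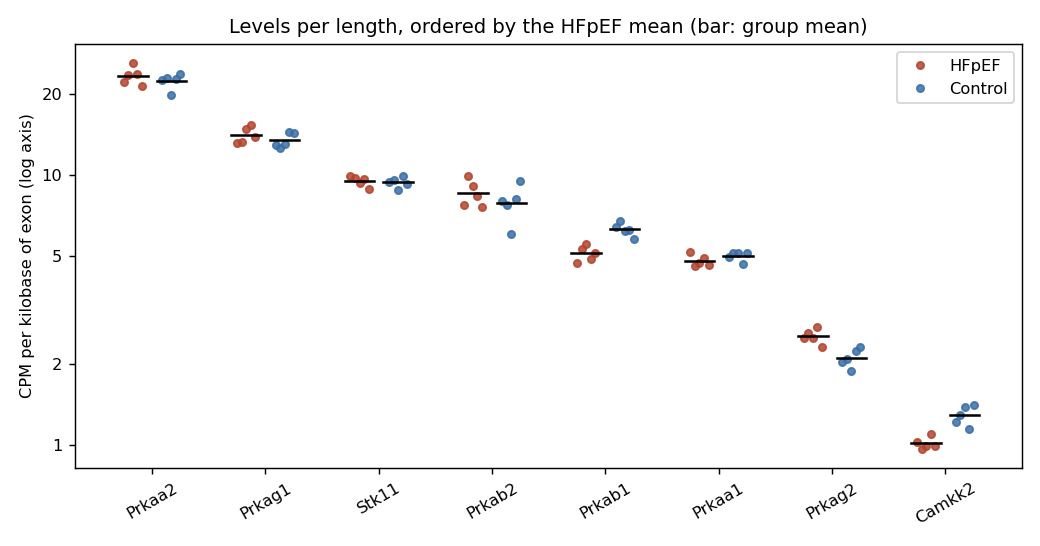
CPM per kilobase of exon on a log axis for the 8 genes, ordered by the HFpEF mean, with HFpEF libraries (red) left of Control libraries (blue) and bars at the group means. Prkaa2 is highest, at 23.3 in HFpEF and 22.3 in Control, and Camkk2 lowest, at 1.02 in HFpEF and 1.29 in Control.

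Ratios of paralogous subunits within a library do not depend on its depth or scaling, and gene length cancels in the difference between groups. Annotated transcripts of the paralogs share no stretch of 50 bases, so an exact match of that length belongs to only 1 of them. Read length is not given here. The log2 ratio of Prkab2 to Prkab1 counts was 1.45, 1.63, 1.45, 1.503 and 1.30 in HFpEF and 1.04, 0.93, 0.69, 1.12 and 1.44 in Control. Control 5 lay within the HFpEF range. The means were 1.47 ± 0.12 in HFpEF and 1.04 ± 0.27 in Control (SD, n = 5 each), a difference of 0.42 (exact permutation test over all 252 splits, two-sided p = 0.0159, or 0.0238 adjusted over the 3 ratios). Per length, beta2 made up 62.4% ± 1.96 of the beta transcripts in HFpEF and 55.3% ± 4.66 in Control, or 53.6% ± 2.08 in HFpEF and 46.3% ± 4.71 in Control with the longest transcripts. The sum of both beta genes was 13.7 ± 1.21 CPM per kilobase in HFpEF and 14.2 ± 1.148 in Control.

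The log2 ratio of Prkag2 to Prkag1 was -0.83, -0.78, -1.001, -0.91 and -1.01 in HFpEF, against -1.10, -1.03, -1.22, -1.12 and -1.06 in Control. The groups did not overlap, and the difference of 0.20 had the smallest p that this exact permutation test can give (two-sided p = 0.00794, 0.0238 adjusted; means -0.91 ± 0.10 in HFpEF and -1.11 ± 0.07 in Control, SD, n = 5 each). Gamma2 made up 15.2% ± 0.935 of the transcripts of Prkag1 and Prkag2 per length in HFpEF and 13.5% ± 0.597 in Control. The overlap with antisense genes given above bears on both counts. The ratio of Prkaa2 to Prkaa1 averaged 3.05 ± 0.14 in HFpEF and 2.93 ± 0.13 in Control, a difference of 0.12 that did not pass the test (exact permutation test, two-sided p = 0.198, n = 5 each). Without Control 4 and Control 5 together the differences of the beta and gamma ratios were 0.58 and 0.21, and neither passed after adjustment (exact permutation test, adjusted p = 0.0536 each), with unadjusted p-values at the smallest that 5 against 3 libraries allow (0.0357).

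**Figure D4:**
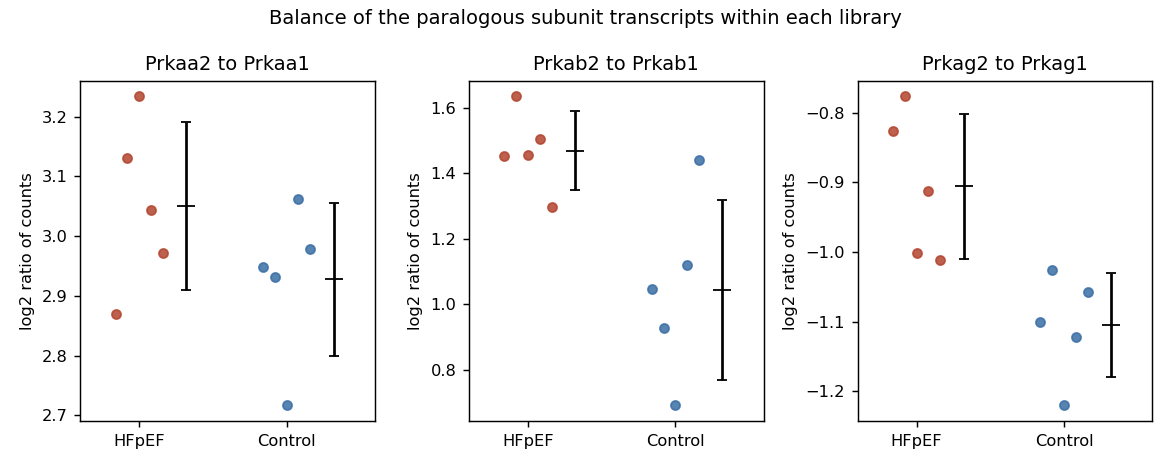
Log2 ratios of counts of the paralogous subunit genes in each HFpEF library (red) and Control library (blue), with group mean and SD in black; axes do not start at 0. The ratios of Prkab2 to Prkab1 and Prkag2 to Prkag1 are higher in HFpEF by 0.42 and 0.20, with Control 5 inside the HFpEF range for the beta genes.

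The sequences before the start sites of the 3 called genes are shown because Prkab1 and Camkk2 fell and Prkag2 rose, and that of Prkab2 as the paralog of Prkab1 that was not called. Each is the 150 bases before a RefSeq start, moved upstream where GENCODE places exon bases of the same gene further out (RefSeq sequence, build GRCm38.p6, 5′ to 3′ on the gene's strand), and all 8 genes matched the RefSeq table. Prkag2 has 3 annotated starts, numbered from the outermost, and counts per gene do not separate them.
Prkab1 (chr5:116024509-116024658, minus strand): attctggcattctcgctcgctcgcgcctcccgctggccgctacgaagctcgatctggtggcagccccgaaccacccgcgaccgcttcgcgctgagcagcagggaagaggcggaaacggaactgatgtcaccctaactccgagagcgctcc
Camkk2 (chr5:122779411-122779560, minus strand): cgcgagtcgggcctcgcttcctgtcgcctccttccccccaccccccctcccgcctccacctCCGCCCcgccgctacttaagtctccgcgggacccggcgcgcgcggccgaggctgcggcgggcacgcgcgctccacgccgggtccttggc
Prkag2 start 1 (chr5:25100643-25100792, minus strand): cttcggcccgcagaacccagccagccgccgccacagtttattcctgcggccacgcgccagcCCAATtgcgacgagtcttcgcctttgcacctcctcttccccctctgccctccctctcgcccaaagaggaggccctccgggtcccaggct
Prkag2 start 2 (chr5:24995754-24995903, minus strand): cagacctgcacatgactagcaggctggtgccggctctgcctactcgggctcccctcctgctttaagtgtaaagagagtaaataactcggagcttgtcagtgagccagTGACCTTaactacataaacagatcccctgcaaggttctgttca
Prkag2 start 3 (chr5:24908510-24908659, minus strand): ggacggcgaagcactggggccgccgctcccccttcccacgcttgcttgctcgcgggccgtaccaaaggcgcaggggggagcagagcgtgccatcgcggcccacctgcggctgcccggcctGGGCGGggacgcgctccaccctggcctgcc
Prkab2 (chr3:97658043-97658192, plus strand): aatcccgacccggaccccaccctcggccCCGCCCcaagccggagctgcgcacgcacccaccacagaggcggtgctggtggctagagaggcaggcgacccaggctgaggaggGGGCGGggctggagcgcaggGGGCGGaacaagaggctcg
Capitals mark matches, on either strand, to 6 motifs whose matches may overlap. Among 32851 windows of 150 bases before RefSeq starts, the GC box GGGCGG was found in 28.6%, CCAAT in 24.5%, the E-box CACGTG in 4.30% and the ERR half-site AAGGTCA in 2.31%. The FoxO element TGTTTAC was found in 1.80% and the cAMP response element TGACGTCA in 1.36%. The window of Prkab1 held none of the 6, and that of Prkab2 held 3 GC boxes. These 2 windows were moved upstream by 80 bases (Prkab1) and 19 bases (Prkab2), while the 32851 windows were not moved. Camkk2 had 1 GC box, and 36 bases of its window lie in exon sequence of another gene, Gm43684. Of the starts of Prkag2, start 1 had a CCAAT box, start 2 an ERR half-site and start 3 a GC box. A match is a description of letters and not a site of binding, and no match says only that these letters are absent from the window. The window of start 2 of Prkag2 held 51.3% G and C, against 65.3% to 78.7% in the other 5 windows and a median of 54.0% over all windows.

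Genes whose profiles over the 10 libraries were most like those of the members were found by the root mean square difference of standardized log2 CPM, among 7245 named genes with a mean of at least 10 CPM. For Prkab1 they were Pxmp2 (0.322 SD) and Mta2 (0.342 SD), and for Camkk2 Usp36 (0.255 SD) and Ralgds (0.345 SD). Prkag2 was closest to Fbxo21 (0.191 SD) and Vcl (0.257 SD). Pxmp2 (-0.28 ± 0.06, adjusted p = 0.0114), Usp36 (-0.19 ± 0.05, adjusted p = 0.0247) and Fbxo21 (0.29 ± 0.08, adjusted p = 0.0415) were called too, which is no separate evidence since they were picked for their likeness to called genes. Pxmp2 stayed called in all 10 fits without 1 library. Usp36 lost its call when HFpEF 3, HFpEF 5, Control 1, Control 2 or Control 5 was left out (highest adjusted p = 0.0622). The Usp36 call also ended without Control 4 and Control 5 together, with no filter on low counts, and with replicate number as a block. Fbxo21 kept its call when HFpEF 5, Control 4 or Control 5 was left out, and lost it with any other library left out (highest adjusted p = 0.0999) and with library size as the sole scaling (adjusted p = 0.184). Prkaa2 was closest to Uba3 (0.189 SD) and Ociad1 (0.215 SD), Prkaa1 to Zfp397 (0.384 SD), Prkab2 to Sdr39u1 (0.280 SD), Prkag1 to Lrpap1 (0.385 SD) and Stk11 to Fam189a2 (0.402 SD). None of these 6 was called by edgeR.

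Around the kinase, 63 genes were all tested: its regulators, its relatives, and its substrates or other downstream genes. Of these 63, 9 rose, 3 fell and 51 were not called, beside 3.24% higher and 2.09% lower among all genes. Their median log2 fold change was 0.01 and their median absolute log2 fold change 0.12, against -0.01 and 0.11 over all genes tested. Of the 63, 26 had an unadjusted p below 0.05. The largest of these p-values, 0.0455, ranked 3607 among the 18491 genes tested (edgeR). The lists were chosen with earlier results of these data known. Of 16 regulators upstream of AMPK, 1 rose and 15 were not called. The riser was Sesn3, sestrin 3, at 33.8 ± 2.09 CPM in HFpEF and 29.2 ± 1.84 CPM in Control (SD, n = 5 each; 0.21 ± 0.06, adjusted p = 0.0437, edgeR). Sesn3 kept its call when HFpEF 1, Control 4 or Control 5 was left out, and lost it with any other library left out (highest adjusted p = 0.113). The 15 others had log2 fold changes from -0.42 to 0.29, the lowest being that of Sesn2, sestrin 2 (adjusted p = 0.132, edgeR). Among them, the LKB1 partners ran from -0.06 (Strada) to 0.14 (Cab39l), with Stradb and Cab39 between. Of the 16 regulators, 7 had an unadjusted p below 0.05.

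Of 12 kinases related to AMPK that LKB1 activates, 2 rose and 10 were not called. Snrk, the SNF-related kinase, stood at 167 ± 10.7 CPM in HFpEF and 127 ± 12.7 CPM in Control (SD, n = 5 each; 0.40 ± 0.07, adjusted p = 0.00326, edgeR). It was called in all 10 fits without 1 library. Sik1, a salt-inducible kinase, rose by 0.49 ± 0.12 (adjusted p = 0.0376), a call that ended without HFpEF 4, HFpEF 5, Control 1, Control 3, Control 4 or Control 5 (adjusted p up to 0.0892). The other 10 ran from -0.22 to 0.01.

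Of 8 genes listed under lipid metabolism, 2 rose and 2 fell. Acaca, the acetyl-CoA carboxylase of fatty acid synthesis, fell to 19.98 ± 1.41 CPM in HFpEF, against 24.3 ± 1.69 CPM in Control (SD, n = 5 each; -0.28 ± 0.06, adjusted p = 0.0155, edgeR). Srebf1, which encodes a transcription factor of lipid synthesis, fell to 20.4 ± 0.813 CPM in HFpEF, against 24.1 ± 0.960 CPM in Control (-0.24 ± 0.05, adjusted p = 0.0114). Lipe, hormone-sensitive lipase, rose by 0.31 ± 0.07 (adjusted p = 0.0153) and Mlycd, which degrades malonyl-CoA, by 0.24 ± 0.06 (adjusted p = 0.0334). Acaca, Srebf1 and Lipe stayed called in all 10 fits without 1 library, while the call of Mlycd ended without HFpEF 2, HFpEF 3, HFpEF 4, Control 1 or Control 2 (adjusted p up to 0.0768). Acacb, the carboxylase isoform that controls fatty acid entry into mitochondria, was not called (0.10 ± 0.04, adjusted p = 0.207). Its level was far above that of Acaca, with means of 387 CPM in HFpEF and 362 CPM in Control. Every HFpEF library lay above every Control library for Acacb, so the fall of Acaca was not shared by the more abundant carboxylase gene.

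Of 8 genes listed under glucose uptake and glycogen, 1 rose and 1 fell. Pfkfb3, which makes the phosphofructokinase activator fructose 2,6-bisphosphate, fell to 12.01 ± 1.14 CPM in HFpEF, against 19.1 ± 3.04 CPM in Control (SD, n = 5 each; -0.66 ± 0.10, adjusted p = 0.00246, edgeR), and was called in all 10 fits without 1 library. Txnip, an arrestin-like protein that restrains glucose uptake, rose (1.05 ± 0.21, adjusted p = 0.0229), a call that ended without Control 3 (adjusted p = 0.0598). Of 11 genes listed under transcription, 3 rose and 8 were not called. They were the coactivator Ppargc1a (0.50 ± 0.11, adjusted p = 0.0199) and the class IIa histone deacetylases Hdac4 (0.27 ± 0.06, adjusted p = 0.0269) and Hdac5 (0.20 ± 0.05, adjusted p = 0.0301). The call of Ppargc1a ended without HFpEF 3 or Control 3 (adjusted p up to 0.0588). That of Hdac4 ended without HFpEF 3, HFpEF 4, HFpEF 5, Control 1 or Control 2 (up to 0.0671), and that of Hdac5 without HFpEF 2, HFpEF 4, HFpEF 5 or Control 3 (up to 0.0722). The 9 genes listed under growth control and autophagy gave 0 calls by edgeR, DESeq2 or limma-voom, with 2 genes at an unadjusted p below 0.05. The larger of these 2 p-values, 0.0455, ranked 3607 among the 18491 genes tested (edgeR). Calls in these lists that ended with library size as the sole scaling were those of Sesn3, Lipe, Mlycd, Hdac4 and Hdac5. Those of Sik1 and Ppargc1a ended with no filter on low counts, and that of Sesn3 with limma-voom. Without Control 4 and Control 5 together, the calls of Sik1, Lipe, Txnip, Ppargc1a and Hdac5 ended. With replicate number as a block, those of Sesn3, Srebf1 (edgeR adjusted p = 0.0509), Lipe, Mlycd, Ppargc1a and Hdac5 ended. In the growth control list, the smallest p belonged to Mff, the mitochondrial fission factor, at 57.3 ± 2.24 CPM in HFpEF and 53.5 ± 1.04 CPM in Control (adjusted p = 0.205).

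**Figure D5:**
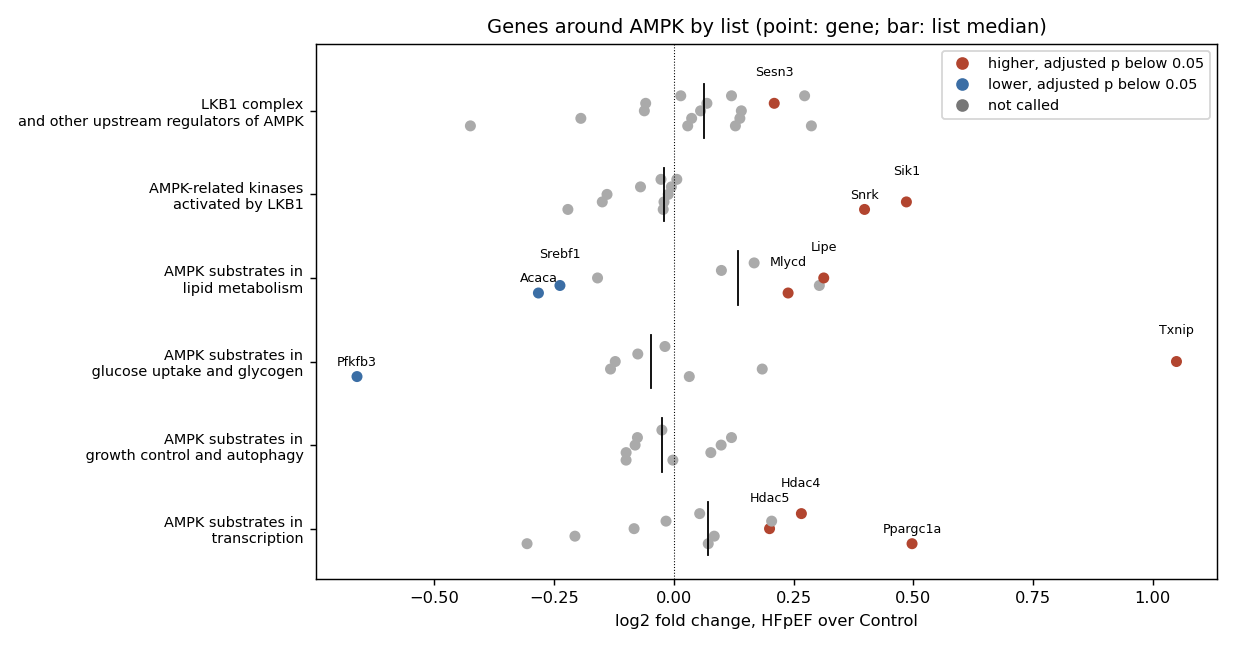
Log2 fold changes of HFpEF over Control for the genes of 6 lists around AMPK, 1 point per gene; red is called higher, blue called lower, grey not called, and black bars are list medians. Calls lie on both sides of 0 in the lists of lipid and glucose genes, from Pfkfb3 (-0.66) to Txnip (1.05), and the growth control list holds 0 calls.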

How the data were processed

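RNA was sequenced in 10 libraries of left ventricle; per the labels' protocols, a Swift Biosciences total RNA kit was used after rRNA depletion. The sources used here do not give the strand setting. The deposited values are expected counts per gene, whole numbers not normalized by the authors; per the submitters' processing notes, RSEM 1.2.15, Bowtie2 2.1.0 and mm10 were used, with no order or role named. They were used as deposited, and 92 ERCC sequences, all at 0, were left out.

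Genes were filtered with filterByExpr (minimum count 10) and tested with edgeR 4.0.16 (R 4.3.3): TMM scaling and a robust quasi-likelihood fit of group over all 10 libraries, with Benjamini-Hochberg adjustment, called at 0.05. The test was checked on simulated data. Intervals are 95%. Exact permutation tests used SciPy 1.17.1. Lengths and coordinates are from GENCODE M21 (mm10). Within groups, all library pairs differed beyond counting noise (chi-square per degree of freedom 4.26 to 23.3).

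The members and gene lists were chosen with earlier results of these data known. The text names the 8 members, called list members (at most 6 a list, or the smallest p) and the nearest profiles. Called and most abundant markers are named too. Strada, Stradb, Cab39, Cab39l, Sesn2, Acacb, Myl7, Sln, Actn3, Mylpf, Tnnt3, Myh4 and Ucp1 were named after values were seen. Alternatives were other scalings (RLE, upper quartile, library size alone, mitochondrial genes left out), filters, DESeq2 1.42.0, limma-voom (limma 3.58.1), a replicate block and leaving out each library; leaving out Control 4 and Control 5 together was added after the data were seen.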

Additional observations from a re-analysis of the deposited data

Results flagged for a closer look

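Among 108 groups of 5 values examined, 4 had a highest or lowest library far from the rest by Dixon's criterion, where chance gives about 1 in 20. None was a value of the 8 genes or their ratios. Txnip stood at 767 CPM in HFpEF 1, against at most 546 CPM in the other HFpEF libraries. Mta2 stood at 22.3 CPM in HFpEF 1, against at least 23.9 CPM in the others. Zfp397 stood at 36.7 CPM in Control 4, against at least 39.96 CPM in the other Control libraries, and Fam189a2 at 22.9 CPM in Control 3, against at least 27.7 CPM.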

How the results depend on the processing

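Calls of Prkab1 and Camkk2 were kept under all 20 alternatives, and 5 members stayed uncalled under them. Leaving out 1 library gave 554 to 1101 genes called (554 without HFpEF 3, 633 without HFpEF 4, 630 without Control 1), 7 to 13 list genes (7 without HFpEF 4 or Control 3) and 2 or 3 members, with Prkag2 at 0.22 to 0.30 and Stk11 at -0.0077 (without Control 3) to 0.042 on the log2 scale. With library size alone, 1523 genes were called, 632 of them in common with the 985, Prkag2 was not called (0.16), and Prkaa2, Prkag1 and Stk11 turned to -0.041, -0.041 and -0.086. Uncalled genes also turned there: Mff (-0.0023), Dcn (-0.0074), Rgs5 (-0.0025), Uba3 (-0.075), Ociad1 (-0.059), Sdr39u1 (-0.043), Lrpap1 (-0.081), Atg4b (-0.049), Fam189a2 (-0.051) and Arih2 (-0.060). Leaving out 1 library gave -0.0068 to 0.062 for Uba3, -0.0030 to 0.13 for Sdr39u1 and -0.0058 to 0.091 for Fam189a2. Without Control 4 and Control 5 together 7 list genes were called, and the beta and gamma ratios, at 0.58 and 0.21, did not pass after adjustment. Numbers are shared between the groups, and same-numbered libraries deviated with correlations of -0.15 to 0.13, 1 of 5 correlating best with its own number. With so few libraries, these values cannot show whether same-numbered samples were paired. With the replicate block 744 genes, 6 list genes and 2 members were called, Prkag2 at 0.26 not among them (edgeR adjusted p = 0.0630). With that block, exact sign-flip permutation tests gave p = 0.125 for the beta ratio (0.42), whose pair 5 had the opposite sign, and p = 0.0625, the smallest possible, for the gamma ratio (0.20). The cause of these shifts was not tested. Members had 333 to 9496 counts per library.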

Other observations

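The 3 called members, Prkab1, Prkag2 and Camkk2, are the 3 of the 8 that lie on chromosome 5, and none of the 5 genes on other chromosomes was called. This was seen after the values were known. Over all genes tested, 4.96% of the 1290 on chromosome 5 were called. Over chromosomes 1 to 19 and X the share ran from 3.05% (chromosome 18) to 6.92% (chromosome 19). The 6.77 Mb from the start of Prkab1 to the end of Camkk2 held 96 tested genes, 8 of them called (8.33%). Of these, 6 were lower, Prkab1 and Camkk2 among them, and 2 higher, Fbxo21 among them. The ends of this stretch were set by 2 called genes, so its share is not independent of them.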
